A study of Mus musculus with 18 samples.

Results

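The 10 genes described here, Cd163, Spic, Vcam1, Siglec1, Marco, Cd5l, Mertk, Axl, Adgre1 and Timd4, mark the macrophages that reside in the red pulp of the spleen and in other tissues. They were chosen by name, with earlier results of the same data known, and in particular with their levels after streptozotocin and after transplantation known. All 10 were found among the 19320 uniquely named genes of the table, and all 10 belong to the 12905 genes tested, which reached an RPKM of 1 in at least 3 libraries. RPKM gives the reads of a gene relative to its length and to all reads mapped in that library. In 9 of them every library reached an RPKM of 1, and Cd163 is the exception.

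Spleens of ICR mice, an outbred stock, were collected at 10 weeks of age, and their mRNA was sequenced in 18 libraries, 3 in each of 6 groups. The labels do not say whether each library is from a single animal. Con animals were the controls, and A10 animals were given alginate oligosaccharide (AOS), a short sugar chain made from brown algae, at 10 mg/kg. STZ animals were given streptozotocin, a toxin of the insulin-producing beta cells that is used to model type 1 diabetes, and STZ-A10 animals were given STZ with AOS at 10 mg/kg. The A10-FMT and Con-FMT animals were also given STZ, and then a fecal microbiota transplant (FMT), from donors that had received AOS at 10 mg/kg or from control donors. According to the paper, the donor material was pooled within each donor group. There was no transplanted group without STZ and no STZ group with a mock transplant, so transplantation and its procedure cannot be told apart, and whole spleen was sequenced, so fewer cells of a type and less RNA per cell cannot be told apart either. Streptozotocin also enters liver and kidney cells, and no group separates its direct action from diabetes.

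Red pulp macrophages engulf old red blood cells and return the iron of their hemoglobin to the body. Their identity depends on the transcription factor SPI-C, and they carry surface proteins for hemoglobin uptake, for retention in the tissue and for the recognition of dying cells. The marginal zone, between red and white pulp, holds other macrophages that filter the blood with scavenger and lectin receptors. Several of the 10 genes are not made by macrophages alone: Vcam1, for example, is also made by endothelial and stromal cells, and Axl by stromal cells.

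The libraries differed in composition. The globin genes took 10.43% to 42.69% of the sum of all values, lowest in STZ replicate 1 and highest in A10-FMT replicate 3, and 11532 to 12893 genes reached an RPKM of 1. A library with much globin RNA tends to give smaller values to all other genes. They need not shrink in proportion to these shares, since the sum of all values itself ran from 673221 to 884539 RPKM. The median log2(RPKM + 1) of the genes tested ran from 3.32 to 3.77. The table holds no read counts and the depth is unknown, but if the most frequent low value is taken as 1 read, a gene of 1 kb at an RPKM of 1 had about 13.3 reads in most libraries, and Cd163 is the only one of the 10 near that level. The markers of the labelled tissue were present: B cell genes summed to 559.35 to 2622.59 RPKM and those of T cells to 67.92 to 374.18, whereas the defining Kupffer cell genes Clec4f and Vsig4, of liver macrophages, reached at most 0.16 and 1.12 RPKM. Markers of tissues other than spleen were found as well, unevenly between libraries. Exocrine pancreas genes summed to 183.8 to 22938.26 RPKM and hepatocyte genes to 107.74 to 379.04 in A10-FMT. Testis germ cell genes summed to 17.33 to 274.42 RPKM in Con. How this RNA came into the libraries was not tested.

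Cd163, the receptor through which macrophages take up hemoglobin bound to haptoglobin, had the lowest level of the 10 genes and the widest range. It was measured at 1.28, 1.42 and 1.28 RPKM in the Con libraries and at 0.93, 1.94 and 0.86 RPKM in A10. In STZ it was 2.96, 5.24 and 2.43 RPKM, and in STZ-A10 it was 3.8, 1.82 and 2.6 RPKM. Every STZ library was thus above every Con library, and 1 STZ-A10 library lay below the highest A10 library. The A10-FMT libraries held 1.66, 1.57 and 1.98 RPKM and the Con-FMT libraries 1.34, 1.59 and 1.27 RPKM, all below the STZ libraries. The order of the group means was STZ, STZ-A10, A10-FMT, Con-FMT, Con and A10, and the libraries of each neighbouring pair in that order overlapped. The ratio of the highest to the lowest of the 18 libraries was 6.09, against 1.62 for Adgre1.

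Spic encodes SPI-C, the factor on which red pulp macrophages depend. Its RPKM was 39.92, 36.47 and 48.66 in Con, 46.44, 48.63 and 57.07 in A10, 58.59, 50.55 and 49.41 in STZ, and 64.04, 51.1 and 49.16 in STZ-A10. Both transplant groups were lower, at 40.37, 44.04 and 36.11 RPKM in A10-FMT and 42.73, 40.66 and 45.56 RPKM in Con-FMT. Each A10, STZ and STZ-A10 library was above each library of the 2 transplant groups, while the Con libraries overlapped with both sides.

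Vcam1, an adhesion molecule that binds the integrin alpha4 beta1 and is abundant on red pulp macrophages, had the highest mean level per length of the 10 genes, 98.2 RPKM over the 18 libraries. It was 65.08, 79.71 and 100.37 RPKM in Con, 83.06, 100.03 and 91.17 in A10, and 117.04, 123.28 and 122.27 in STZ. STZ-A10 held 154.55, 99.88 and 125.65 RPKM, A10-FMT 79.19, 80.35 and 74.95 RPKM, and Con-FMT 76.1, 77.77 and 116.44 RPKM. The STZ libraries, which differed little among themselves, were above all Con, A10, A10-FMT and Con-FMT libraries.

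Siglec1 and Marco are receptors of macrophages at the marginal zone, SIGLEC1 for sialic acid and MARCO for bacteria and particles, and both are found on other macrophages too. Siglec1 was 6.91, 6.56 and 10.36 RPKM in Con, 8.49, 8.6 and 14.34 in A10, 9.79, 8.87 and 8.85 in STZ, and 15.03, 10.08 and 13.38 in STZ-A10. In A10-FMT it was 8.18, 5.6 and 3.55 RPKM, and in Con-FMT 8.39, 6.38 and 10.24 RPKM. Thus the STZ libraries lay within the range of Con, and A10-FMT lay below STZ. Marco was 32.62, 37.14 and 51.68 RPKM in Con, 38.38, 57.47 and 53.26 in A10, 60.19, 116.63 and 53.29 in STZ, and 107.28, 67.29 and 81.68 in STZ-A10. It was 69.0, 47.84 and 25.37 RPKM in A10-FMT and 47.07, 34.2 and 79.5 in Con-FMT. The high mean of STZ, 76.7 RPKM ± 34.7 (SD, n = 3), rested largely on replicate 2, and both transplant groups overlapped with Con and with STZ.

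Cd5l encodes a secreted scavenger protein that limits macrophage death. Its Con libraries were close together, at 16.03, 15.23 and 16.72 RPKM, and all 15 other libraries were higher than these. The values were 19.57, 20.68 and 30.43 RPKM in A10, 22.9, 29.03 and 23.63 in STZ, 42.68, 20.62 and 38.0 in STZ-A10, 17.63, 17.86 and 28.08 in A10-FMT and 19.05, 21.11 and 29.54 in Con-FMT.

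Mertk and Axl are receptor tyrosine kinases that bind GAS6, and MERTK and TIMD4 are receptors for the phosphatidylserine of dying cells, the former through bridging ligands and the latter directly. Mertk was 4.87, 6.55 and 7.89 RPKM in Con, 6.35, 7.09 and 7.35 in A10, 8.91, 10.31 and 7.29 in STZ, 13.24, 8.29 and 11.51 in STZ-A10, 5.08, 6.39 and 4.88 in A10-FMT and 6.78, 5.46 and 7.63 in Con-FMT. All 3 STZ-A10 libraries were above every library of the groups without STZ and of the transplant groups. Axl was 31.25, 38.39 and 51.05 RPKM in Con, 39.19, 45.02 and 47.44 in A10, 59.36, 59.25 and 48.59 in STZ and 69.05, 47.68 and 48.16 in STZ-A10. A10-FMT had the lowest Axl, at 31.51, 35.99 and 25.14 RPKM, below all libraries of Con-FMT at 39.38, 39.86 and 49.32 RPKM.

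Timd4 did not share the order of Mertk and Axl. It was 17.91, 24.93 and 33.65 RPKM in Con, 28.32, 34.08 and 30.24 in A10, 27.0, 25.95 and 22.19 in STZ, 43.17, 28.77 and 30.63 in STZ-A10, 26.89, 22.14 and 10.08 in A10-FMT and 22.5, 21.1 and 34.45 in Con-FMT, and the STZ mean ranked the fifth of the 6 groups. Adgre1, which encodes the general macrophage surface protein F4/80, varied least. Its libraries were at 9.24, 10.82 and 13.18 RPKM in Con, 10.05, 13.73 and 13.55 in A10, 11.78, 10.67 and 12.93 in STZ, 14.76, 11.56 and 13.43 in STZ-A10, 9.1, 11.27 and 9.3 in A10-FMT and 10.66, 12.16 and 13.96 in Con-FMT. The 5 groups other than A10-FMT had Adgre1 means between 11.1 and 13.2 RPKM, and A10-FMT a mean of 9.89 RPKM ± 1.2 (SD, n = 3).

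**Figure D1:**
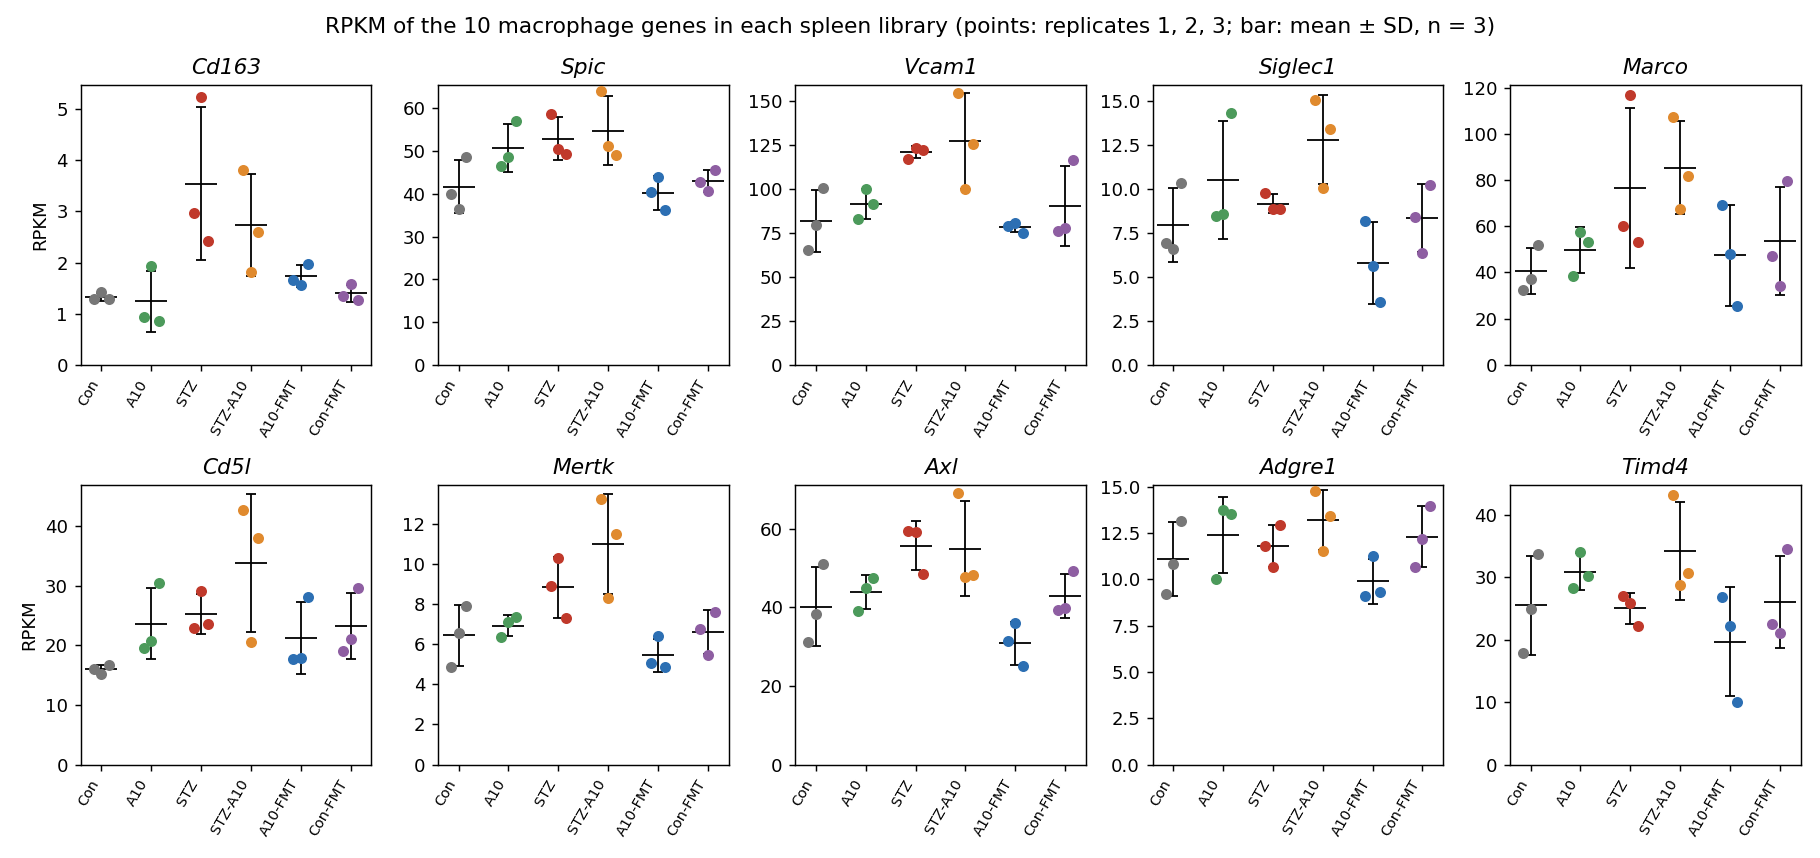
RPKM of each of the 10 genes (vertical axes, from 0, a scale for each gene) in the 18 libraries by group. Points are replicates 1, 2 and 3 from left to right, and bars are the mean ± SD of 3 libraries. Cd163 in STZ (2.43 to 5.24 RPKM) lies above Con (1.28 to 1.42 RPKM), whereas Adgre1 stays between 9.1 and 14.76 RPKM.

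The upstream stretches of 4 of the genes are shown to place the PU box core, the letters GAGGAA recognized by ETS factors of the group that includes SPI-C and PU.1. Whether the core bears on the levels of the genes was not tested. The tables of RefSeq promoters (GRCm38.p6) held 7 of the 10 genes, namely Cd163, Spic, Marco, Cd5l, Mertk, Axl and Timd4. The 250 bases before the annotated start were searched on both strands, on which the core reads GAGGAA or TTCCTC. It was found in 3 of the 7 (42.9%), and in 7639 (23.3%) of 32851 windows of the same length over all genes. Marco is shown from chr1:120505025-120505274 (minus strand), Cd5l from chr3:87357631-87357880 (plus strand) and Axl from chr7:25788734-25788983 (minus strand), the 3 that hold the core. Cd163, from chr6:124304401-124304650 (plus strand), is shown as the one of the 10 with the largest fitted change in STZ against Con. Its window does not hold these letters. All are written 5′ to 3′ in the direction of the gene, up to the base before its start, with the core in capitals.
Marco: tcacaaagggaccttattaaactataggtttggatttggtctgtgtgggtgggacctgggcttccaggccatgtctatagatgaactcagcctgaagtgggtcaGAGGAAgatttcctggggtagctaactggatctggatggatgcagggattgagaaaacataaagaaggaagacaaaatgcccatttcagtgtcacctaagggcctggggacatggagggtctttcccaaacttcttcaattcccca
Cd5l: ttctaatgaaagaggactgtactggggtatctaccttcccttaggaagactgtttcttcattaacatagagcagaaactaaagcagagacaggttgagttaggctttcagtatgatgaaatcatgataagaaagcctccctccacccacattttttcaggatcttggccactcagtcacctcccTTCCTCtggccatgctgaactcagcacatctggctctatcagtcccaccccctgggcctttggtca
Axl: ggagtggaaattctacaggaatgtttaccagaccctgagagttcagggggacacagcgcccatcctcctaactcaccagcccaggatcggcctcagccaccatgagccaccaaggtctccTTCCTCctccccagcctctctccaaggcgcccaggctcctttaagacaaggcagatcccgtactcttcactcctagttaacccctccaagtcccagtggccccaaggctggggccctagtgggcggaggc
Cd163: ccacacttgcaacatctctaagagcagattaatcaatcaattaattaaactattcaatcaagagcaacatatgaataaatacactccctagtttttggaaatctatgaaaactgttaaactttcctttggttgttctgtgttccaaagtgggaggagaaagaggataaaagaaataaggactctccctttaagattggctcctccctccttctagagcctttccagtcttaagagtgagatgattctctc
In Marco the core covers the bases 146 to 141 before the start, in Cd5l, on the opposite strand, the bases 66 to 61, and in Axl, also on the opposite strand, the bases 130 to 125. A match of these letters is not a measured binding site. The genes themselves lie on 8 chromosomes of GRCm38 and are all annotated as protein-coding, for example Cd163 at chr6:124304656-124330527, Spic at chr10:88674772-88685015, Vcam1 at chr3:116109949-116129688 and Adgre1 at chr17:57358691-57483527.

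The difference between STZ and Con, which was known when the genes were chosen, is given as a description. On the log2(RPKM + 1) scale, which understates the changes of genes with low values such as Cd163, all 10 genes had a higher fitted mean in STZ, with a median log2 fold change of 0.45 against -0.01 over all genes tested. The fitted change was 0.92 ± 0.226 (SE) for Cd163, 0.84 ± 0.372 for Marco, 0.62 ± 0.251 for Cd5l, 0.58 ± 0.181 for Vcam1 and 0.48 ± 0.186 for Axl. Smaller values were fitted for Mertk (0.41 ± 0.183), Spic (0.34 ± 0.131), Siglec1 (0.21 ± 0.255), Adgre1 (0.09 ± 0.151) and Timd4 (0.01 ± 0.295). The RPKM means of STZ and Con had a ratio of 2.67 for Cd163 and 0.982 for Timd4. None of the 10 passed the Benjamini-Hochberg threshold of limma, which 0.163% of all genes tested did in either direction. At an unadjusted p under 0.05, 7 of the 10 were higher, as were 4.63% of all genes tested, and in 5 of the 10, Cd163, Spic, Vcam1, Marco and Cd5l, all STZ libraries were above all Con libraries, as in 5.77% of all genes. Since these values led to the choice of the genes, nothing is read from the counts. The 7 became 2 when Con replicate 1 was left out, where 8 of the 10 were higher, 3 when Con replicate 2 was, 4 when STZ replicate 1 was and 3 when STZ replicate 2 was. Marco was at 0.50 without STZ replicate 2, and Mertk and Axl were at 0.25 and 0.32 without Con replicate 1. Cd163 passed the threshold without STZ replicate 3 (adjusted p = 0.0386 by limma), and with weights for each library 7 of the 10 passed, together with 3716 of all genes tested. Neutrophil genes (796.03 to 15214.76 RPKM summed in Con, 425.94 to 1722.38 in STZ) and hepatocyte genes (22.37 to 263.17 in Con, 5.85 to 7.43 in STZ) were lower in STZ, with 10 of 10 and 11 of 12 genes lower, as were 4 of 4 testis germ cell genes. Exocrine pancreas genes were higher in 11 of 11 (median 3.14, 1326.74 to 6236.32 RPKM summed in STZ against 25.1 to 2115.61 in Con), and the part of these cells in the values of the 10 genes was not tested.

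The comparison of STZ-A10 with A10 asks what STZ did in animals given AOS, in 6 libraries that enter neither the difference of STZ from Con nor the transplant differences. The estimate of the spread behind its SE and p-values is shared by all 18 libraries. The genes were chosen with earlier results of the same data known, so it is not settled that this comparison is independent of the choice. All 10 genes had a higher mean after STZ, and none of them passed the threshold. The median log2 fold change was 0.37, against -0.03 over all genes tested, of which 42.5% had a higher mean in STZ-A10. Marco (0.76 ± 0.372, adjusted p = 0.511 by limma with Benjamini-Hochberg adjustment) and Cd163 (0.74 ± 0.226, adjusted p = 0.215) had the largest values, followed by Mertk (0.58 ± 0.183, adjusted p = 0.231), Cd5l (0.46 ± 0.251, adjusted p = 0.574) and Vcam1 (0.45 ± 0.181, adjusted p = 0.392). Axl (0.30 ± 0.186) and Siglec1 (0.29 ± 0.255) came next, and Timd4 (0.12 ± 0.295), Spic (0.10 ± 0.131) and Adgre1 (0.09 ± 0.151) were within 1 SE of 0. The ratio of the RPKM means was 2.2 for Cd163, 1.72 for Marco, 1.59 for Mertk, 1.39 for Vcam1 and 1.06 for Adgre1.

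Among all genes tested, 0.0542% passed the adjusted threshold in this comparison. At an unadjusted p under 0.05, 3 of the 10 (Cd163, Mertk and Vcam1) were higher, against 3.79% of all genes tested. In 3 of the 10 (Marco, Mertk and Axl) every STZ-A10 library was above every A10 library, as was so for 7.69% of all genes. The same replicate weighed on most of the genes: STZ-A10 replicate 1 was the highest of all 18 libraries for 8 of the 10 genes and among the highest 3 for all 10. Without it, 8 of the 10 genes were higher, 2 of them at an unadjusted p under 0.05, the median was 0.22, and Spic and Timd4 were at -0.01 and -0.05. Without A10 replicate 1, 9 of the 10 were higher, and Adgre1 was at -0.05 on the same scale. Cd163 kept a log2 fold change of 0.54 to 1.11 over the alternatives tried.

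Other cell types also differed between STZ-A10 and A10. Exocrine pancreas genes summed to 6423.42 to 10004.15 RPKM in STZ-A10 and 50.06 to 821.34 in A10, and were higher in 11 of 11 genes tested. T cell genes were lower in 8 of 8 (183.5 to 283.76 RPKM summed, against 339.23 to 374.18), and hepatocyte genes in 12 of 12 (6.03 to 18.75 RPKM, against 22.06 to 81.81). Of 5 peritoneal macrophage genes 3 were higher (median 0.23), and 2, Rarb and Serpinb2, were lower. The 5 genes summed to 21.38 to 31.85 RPKM in STZ-A10 and 9.5 to 15.38 in A10. Of these, Alox15 was at 9.13, 10.54 and 7.99 RPKM in STZ-A10 and 1.28, 3.96 and 3.0 in A10, while Gata6, the factor that defines those macrophages, was at 2.42, 1.37 and 2.12 RPKM against 1.56, 1.58 and 1.35. The part of these cells in the values of the 10 genes was not tested.

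**Figure D2:**
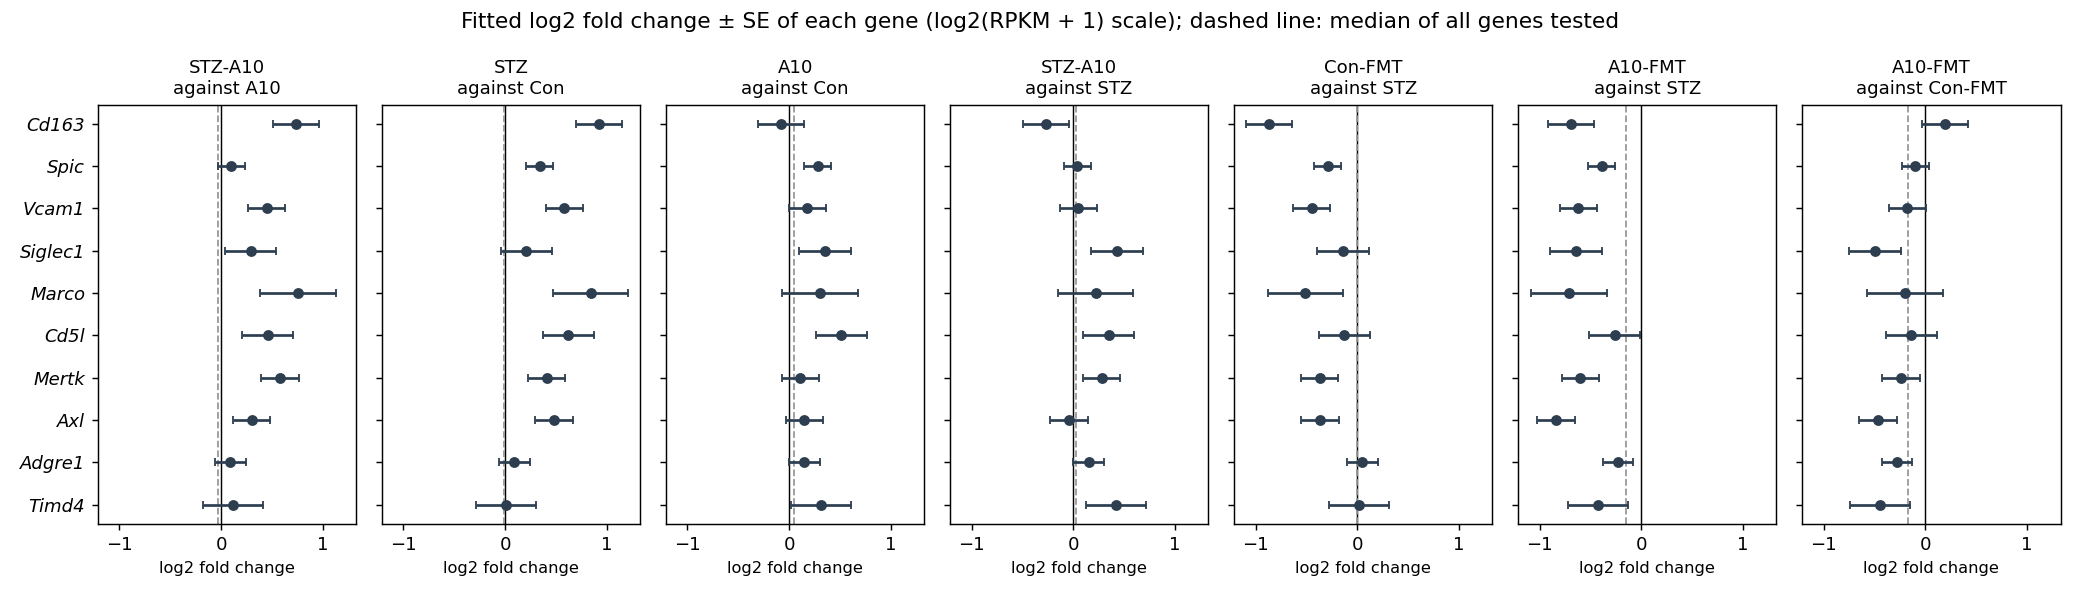
Fitted log2 fold change ± SE (horizontal axes, log2(RPKM + 1) scale) of the 10 genes in 7 comparisons of groups of 3 libraries; the dashed line is the median of all 12905 genes tested. In the comparison of STZ-A10 with A10 all points are above 0, from 0.09 to 0.76, and in that of A10-FMT with STZ all are below 0, from -0.84 to -0.23.

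AOS was compared without and with STZ. Both comparisons, and the interaction below, use Con or STZ libraries, whose difference was known when the genes were chosen. Their values are therefore not independent of that choice. In A10 against Con, 9 of the 10 genes had a higher mean in A10, with a median log2 fold change of 0.23, against 0.05 over all genes tested, of which 62.5% were higher. The largest values were those of Cd5l (0.51 ± 0.251, adjusted p = 0.989 by limma), Siglec1 (0.35 ± 0.255) and Timd4 (0.31 ± 0.295), and Cd163 was at -0.08 ± 0.226. None passed the adjusted threshold, which 0.00775% of all genes did. Spic alone reached an unadjusted p under 0.05 (0.28 ± 0.131, adjusted p = 0.953), as did 3.56% of all genes in that direction, and Cd5l alone had no overlap between the libraries, as did 11.7%. Without Con replicate 1, the median of the 10 was 0.06, Mertk and Axl were at -0.05 and -0.02, none of the 10 reached an unadjusted p under 0.05, and 7 of the 10 were higher, whereas without Con replicate 3 the median was 0.37. Cd163 was at 0.04 without A10 replicate 3. Neutrophil genes were lower in A10 in 10 of 10, with sums of 561.6 to 1435.64 RPKM against 796.03 to 15214.76 in Con.

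In STZ-A10 against STZ, 8 of the 10 had a higher mean, as did 58.7% of all genes tested, with a median of 0.18 against 0.03 over all genes. Siglec1 (0.43 ± 0.255) and Timd4 (0.42 ± 0.295), both with an adjusted p of 0.996 by limma, were the 2 genes whose STZ-A10 libraries were all above the STZ libraries, as in 3.29% of all genes tested. None of the 10 passed the adjusted threshold (0.00775% of all genes), and none was higher at an unadjusted p under 0.05 (1.28% of all genes). Cd163 was at -0.27 ± 0.226 and Axl at -0.04 ± 0.186. Without STZ-A10 replicate 1 the median of the 10 was 0.06, with Spic at -0.07 and Vcam1 at -0.11, and without replicate 2 it was 0.31. Exocrine pancreas genes were higher in 11 of 11 (6423.42 to 10004.15 RPKM summed, against 1326.74 to 6236.32), T cell genes in 8 of 8 and B cell genes in 8 of 8, and their part was not tested. Whether the STZ difference depended on AOS was tested as an interaction, (STZ-A10 minus A10) minus (STZ minus Con). Its values for the 10 genes ran from -0.24 for Spic to 0.17 for Mertk with a median of -0.11, 7 of them lower, and the adjusted p was 1.0 for each by limma. None of the genes tested passed the threshold (0.0%), and at an unadjusted p under 0.05 none of the 10 and 1.65% of all genes were lower. The SE of the interaction was 0.319 for Cd163 and 0.526 for Marco, and differences in response of that size lay within the error. The median of the 10 was -0.27 without STZ-A10 replicate 1 and 0.08 without STZ-A10 replicate 2.

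The transplant groups were compared with STZ, again as a description, since these differences were known as well. In A10-FMT all 10 genes had a lower mean than in STZ, with a median log2 fold change of -0.61, against -0.15 over all genes tested, of which 72.3% were lower. Axl (-0.84 ± 0.186), Marco (-0.71 ± 0.372), Cd163 (-0.69 ± 0.226), Siglec1 (-0.64 ± 0.255), Vcam1 (-0.62 ± 0.181) and Mertk (-0.60 ± 0.183) had the largest differences. Timd4 was at -0.43 ± 0.295, Spic at -0.39 ± 0.131, Cd5l at -0.26 ± 0.251 and Adgre1 at -0.23 ± 0.151. None passed the adjusted threshold, as against 0.00775% of all genes. At an unadjusted p under 0.05, 6 of the 10 were lower, as were 15.2% of all genes, and in 6 of the 10 all A10-FMT libraries were below all STZ libraries, as in 12.1%. Without Con replicate 1, which enters only the shared estimate of the spread, Axl passed (adjusted p = 0.041 by limma). Without A10-FMT replicate 3, which had the highest globin share, Timd4 was at -0.03, Marco at -0.32, Siglec1 at -0.38 and Cd5l at -0.48, and 5 of the 10 were lower at an unadjusted p under 0.05. Cd163 was at -0.43 without STZ replicate 2. Leaving out A10-FMT replicate 1 put Cd5l at -0.15 and Timd4 at -0.70. With each library centred on its median, the median of the 10 was -0.44. Hepatocyte genes summed to 107.74 to 379.04 RPKM in A10-FMT and 5.85 to 7.43 in STZ, and globin genes to 222733.41 to 377632.5 and 72495.57 to 285158.8 RPKM. Exocrine pancreas genes were lower in 10 of 11 (median -0.59), but differed widely between the A10-FMT libraries. They summed to 183.8 to 22938.26 RPKM there (median 1199.53), against 1326.74 to 6236.32 in STZ. Stromal and endothelial genes were lower in 14 of 15 (median -0.54, 596.3 to 1749.69 RPKM summed against 1372.57 to 2681.06), T cell genes in 8 of 8 and B cell genes in 7 of 8, and erythroid genes were higher in 13 of 13 (median 0.50). The part of these in the values was not tested.

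In Con-FMT against STZ, 8 of the 10 were lower, with a median of -0.33 against 0.0 over all genes. Cd163 (-0.87 ± 0.226), Marco (-0.51 ± 0.372) and Vcam1 (-0.45 ± 0.181) had the largest values, Mertk and Axl were both at -0.37, and Spic was at -0.29 ± 0.131. Cd5l (-0.13 ± 0.251) and Siglec1 (-0.14 ± 0.255) were near 0, and Adgre1 (0.05 ± 0.151) and Timd4 (0.02 ± 0.295) were the 2 that were not lower. None passed the adjusted threshold (0.00775% of all genes), 3 were lower at an unadjusted p under 0.05 (2.58% of all genes), and the same 3, Cd163, Spic and Vcam1, had all Con-FMT libraries below all STZ libraries (6.22% of all genes). Without STZ replicate 2 the median of the 10 was -0.21, Marco was at -0.16, and 1 gene was lower at an unadjusted p under 0.05. Without Con-FMT replicate 3 all 10 were lower, 6 of them at an unadjusted p under 0.05, and without Con-FMT replicates 1 or 2 that count was 1. T cell genes were higher in Con-FMT in 8 of 8 (275.76 to 308.83 RPKM summed, against 160.76 to 241.38 in STZ) and hepatocyte genes in 12 of 12 (8.85 to 48.01 against 5.85 to 7.43), and their part was not tested. Both transplant comparisons and that of STZ with Con use the same 3 STZ libraries, so the same STZ values enter all of them.

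The comparison of A10-FMT with Con-FMT asks what AOS given to the donors changed. Donor material was pooled within each donor group, so AOS in the donors and the pool itself cannot be told apart. The SE and p-values describe libraries of recipients, not the spread between donors. No STZ or Con library enters the difference itself, but all 18 libraries enter the shared estimate of the spread. The differences of both transplant groups from STZ were known when the genes were chosen, so this comparison is not independent of the choice. Of the 10 genes, 9 had a lower mean in A10-FMT, but so did 71.0% of all genes tested, and the median of the 10 (-0.22) was close to that of all genes (-0.17). Siglec1 (-0.50 ± 0.255, adjusted p = 0.229 by limma), Axl (-0.47 ± 0.186, adjusted p = 0.204) and Timd4 (-0.45 ± 0.295, adjusted p = 0.304) had the largest values, and Cd163, at 0.19 ± 0.226, was the gene that was not lower. No gene of the table passed the adjusted threshold (0.0%). At an unadjusted p under 0.05, Axl was the only one of the 10 that was lower, against 20.1% of all genes, and it was the only one without overlap, against 23.9%. With each library centred on its median, Spic (0.08) and Cd5l (0.04) changed sign, the median of the 10 was -0.04, and none, Axl included, was lower at an unadjusted p under 0.05. The same was so for that count without A10-FMT replicate 3 and without Con-FMT replicate 3. Without Con-FMT replicate 3 the median of the 10 was -0.10, with Vcam1 at 0.02 and Cd5l at 0.04, and Marco was at 0.18 without A10-FMT replicate 3. The T cell genes (8 of 8 lower, 67.92 to 257.93 RPKM summed against 275.76 to 308.83) and the erythroid genes (13 of 13 higher, 2377.87 to 5454.09 against 1946.65 to 2265.12) differed in the same comparison. So did the stromal and endothelial genes (15 of 15 lower, median -0.49, 596.3 to 1749.69 against 1634.56 to 1883.55), the B cell genes (8 of 8 lower, median -0.76) and the hepatocyte genes (11 of 12 higher, median 2.09). Exocrine pancreas genes were lower in 9 of 11 (median -0.54), at 183.8 to 22938.26 RPKM summed against 1897.69 to 3140.45. The part of all these cells in the values was not tested.

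Averaged over the 10 genes, the log2(RPKM + 1) level was 4.20 ± 0.24 (SD, n = 3) in Con, 4.43 ± 0.16 in A10, 4.65 ± 0.15 in STZ, 4.82 ± 0.30 in STZ-A10, 4.11 ± 0.19 in A10-FMT and 4.35 ± 0.24 in Con-FMT. By library it ran from 3.89 in A10-FMT replicate 3, the lowest of all 18 for 5 of the 10 genes, to 5.12 in STZ-A10 replicate 1. Con replicate 1, at 3.99, was the lowest for 2 of the genes, and like A10-FMT replicate 3 it was among the lowest 3 for 8 of them. STZ replicate 2 was the highest for Cd163 and Marco. After the median of all genes tested was subtracted from each library, A10-FMT replicate 3 was at 0.57 and A10-FMT replicate 2 at 0.59, while Con replicate 1, at 0.40, was lowest and STZ-A10 replicate 1, at 1.35, still highest.

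**Figure D3:**
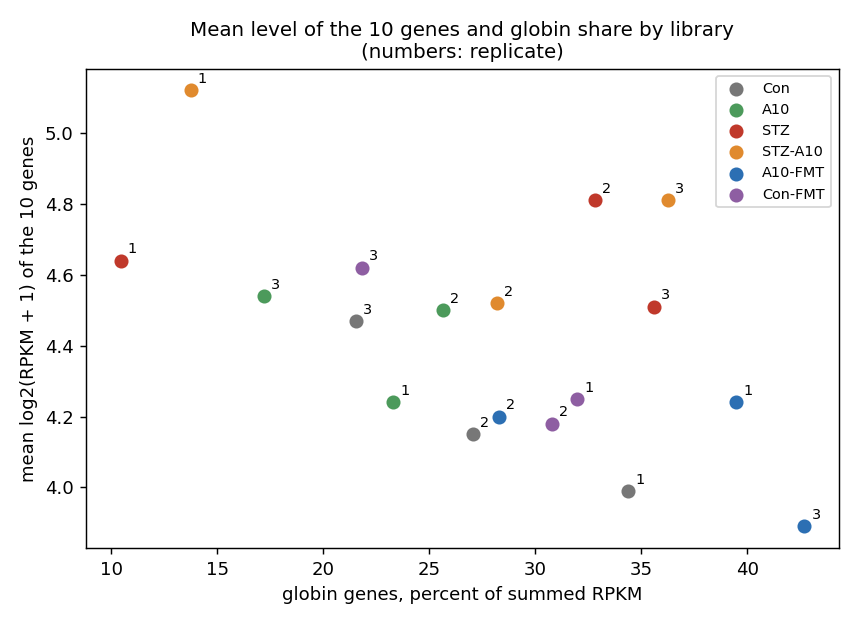
Mean log2(RPKM + 1) of the 10 genes (vertical axis) against the percent of the summed RPKM in globin genes (horizontal axis) in each of 18 libraries, coloured by group and numbered by replicate. A10-FMT replicate 3 combines the highest globin share (42.69%) with the lowest mean (3.89), and STZ-A10 replicate 1 has the highest mean (5.12).

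Most pairs of the genes were correlated across libraries. Over the 18 libraries, the 45 pairs of the 10 genes had Pearson's r of 0.11 to 0.90 with a median of 0.69, and after the group means were subtracted the values ran from -0.12 (Cd163 with Siglec1) to 0.85 with a median of 0.56. These values describe libraries that share their composition and scaling. Vcam1 with Mertk (0.90), Mertk with Axl (0.89) and Vcam1 with Axl (0.88) had the highest r, and Cd163 with Timd4 (0.11), Adgre1 (0.16) and Siglec1 (0.17) the lowest. Relative to Adgre1 in the same library, Cd163 was 0.122 ± 0.0221 in Con, 0.0991 ± 0.0393 in A10, 0.31 ± 0.16 in STZ, 0.203 ± 0.0506 in STZ-A10, 0.178 ± 0.037 in A10-FMT and 0.116 ± 0.0217 in Con-FMT (SD, n = 3). Vcam1 relative to Adgre1 was 7.34 ± 0.287 in Con, 7.43 ± 0.778 in A10, 10.3 ± 1.1 in STZ, 9.49 ± 0.923 in STZ-A10, 7.96 ± 0.791 in A10-FMT and 7.29 ± 0.982 in Con-FMT. Timd4 relative to Adgre1 had group means between 2.0 and 2.56. The ratios show that the genes changed unequally, not which of them was constant.

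Outside the 10, the genes most like their mean pattern over the 18 libraries included Csf1r (r = 0.955), the receptor for the growth factor on which macrophages depend. Others were Adap2, Sema6d, Trpm2, Naip5, Lrp1, Rapgef5, Chst15 and Vldlr, with r of 0.906 to 0.933. After the group means were subtracted, r was 0.935 for Csf1r. This gene was at 98.9, 63.97 and 78.07 RPKM in STZ-A10 and 58.93, 62.52 and 64.37 in A10. For single genes, the nearest were Trnp1 (r = 0.885), Gpx3 (0.877) and Glul (0.872) for Cd163, Lgmn (0.893), Cd81 (0.891) and Zfp689 (0.882) for Spic, and Slc45a3 (0.952), Gdpd2 (0.914) and Itgad (0.908) for Vcam1.

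Of 22 genes of the red pulp programme and of iron handling, none passed the adjusted threshold in any comparison. In STZ-A10 against A10, 14 were higher and 8 lower, 5 of them higher and none lower at an unadjusted p under 0.05, with a median of 0.08. Of all genes tested, 42.5% were higher (median -0.03), and 3.79% were higher at an unadjusted p under 0.05. Those with the largest values were Lrp1 (0.64 ± 0.167, adjusted p = 0.146 by limma), a receptor that takes up heme bound to hemopexin, Itgad (0.61 ± 0.182, adjusted p = 0.192), an integrin of red pulp macrophages, and Hmox1 (0.52 ± 0.216, adjusted p = 0.404), which breaks down heme. Itgad was at 17.82, 15.46 and 15.49 RPKM in STZ and 8.48, 8.96 and 12.78 in Con, and in STZ-A10, at 16.78, 12.98 and 20.46 RPKM, it was above all A10 libraries at 9.14, 11.3 and 10.93 RPKM. Hmox1 was at 334.82, 280.69 and 252.55 RPKM in STZ-A10 and 215.89, 219.99 and 167.62 in A10, also without overlap, as in 7.69% of all genes tested.

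Of 20 general macrophage markers, 13 were higher and 7 lower in STZ-A10 than in A10 (median 0.17), 5 and 1 of them at an unadjusted p under 0.05. Of all genes tested, 42.5% were higher (median -0.03), and 3.79% were higher at an unadjusted p under 0.05. The list did not move as 1 block: Aif1, an actin-binding protein of macrophages, was lower (-0.79 ± 0.2, adjusted p = 0.132 by limma), at 32.89, 27.32 and 27.24 RPKM against 45.3, 52.15 and 55.92, and Msr1, a scavenger receptor, was higher (0.63 ± 0.277, adjusted p = 0.449). Of 8 marginal zone and LXR genes 7 were higher (median 0.24), led by Cd209b, the lectin of marginal zone macrophages (0.87 ± 0.402, adjusted p = 0.477), at 16.53, 12.56 and 16.67 RPKM against 4.48, 9.46 and 11.07. In A10-FMT against Con-FMT, 18 of the 20 general markers and 8 of the 8 marginal zone and LXR genes were lower, as were 71.0% of all genes tested. The medians were -0.34 and -0.51, against -0.17 over all genes tested.

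Of 20 ligands, binding partners and other phosphatidylserine receptors, 10 were higher and 10 lower in STZ-A10 than in A10. Gas6, the ligand of AXL and MERTK, was at 47.59, 33.77 and 29.08 RPKM in STZ-A10 and 31.47, 35.85 and 32.62 in A10 (0.11 ± 0.327), and Pros1, another ligand of MERTK, was at 12.7, 13.04 and 11.18 RPKM against 8.92, 11.86 and 10.51 (0.22 ± 0.115). Itga4, which encodes the integrin chain that binds VCAM1, was at 33.67, 50.93 and 48.77 RPKM against 35.88, 38.23 and 36.9 (0.24 ± 0.157). The libraries of both groups overlapped for all 3. Of the stromal and endothelial genes, which include sources of Vcam1 and Axl, 9 were higher and 6 lower. Pdgfra, a fibroblast receptor, was higher (1.21 ± 0.25, adjusted p = 0.0744 by limma), at 17.59, 9.73 and 11.37 RPKM against 4.47, 5.58 and 4.54, and Col3a1, a collagen, was lower without passing the threshold (adjusted p = 0.119).

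**Figure D4:**
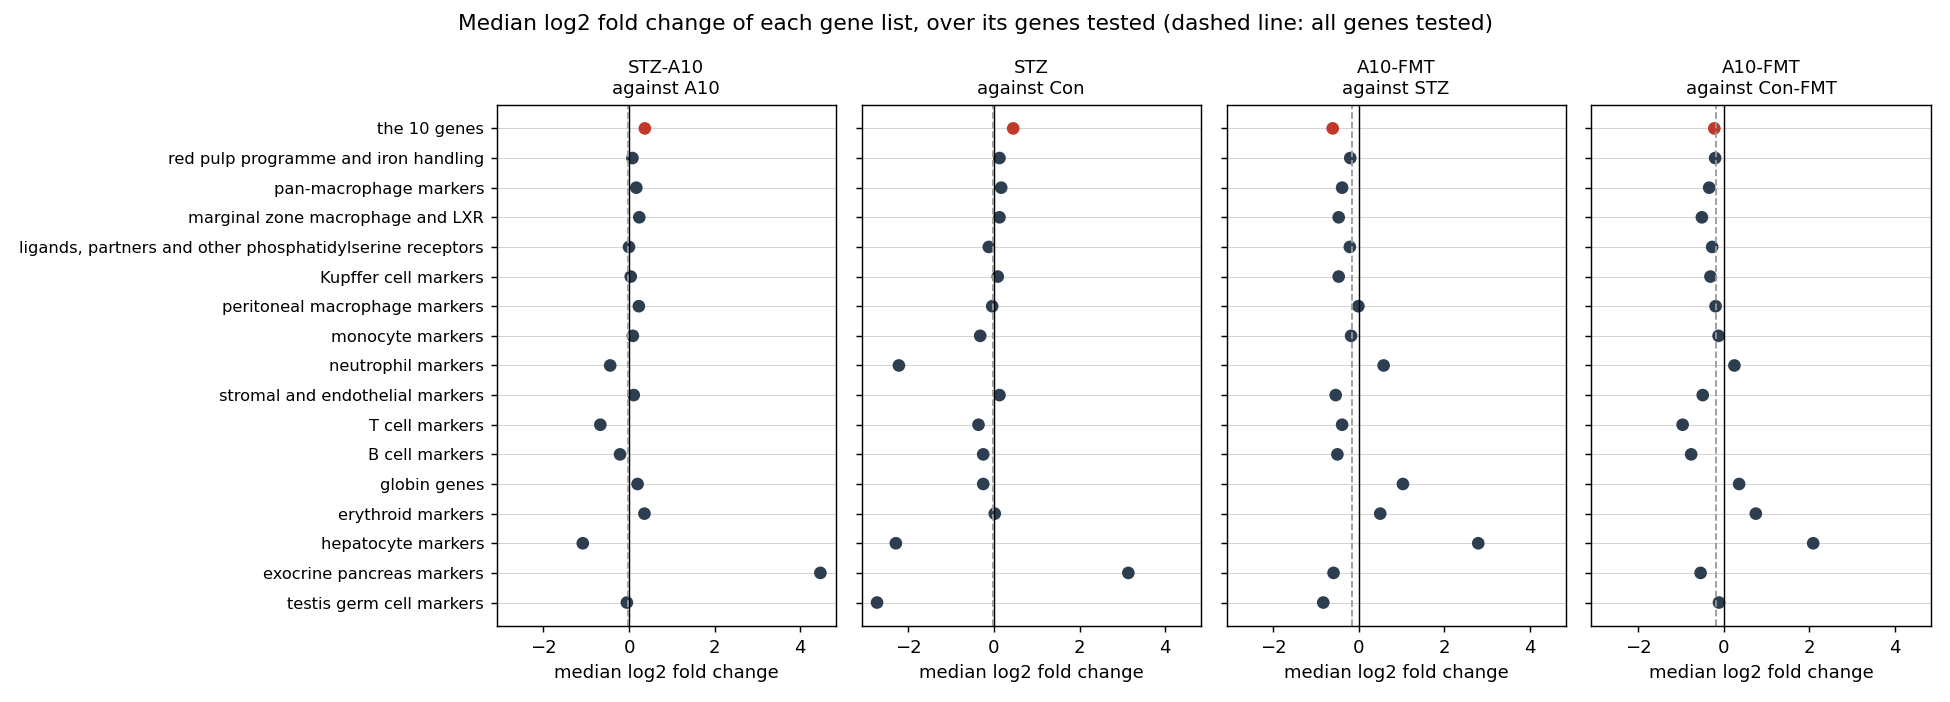
Median log2 fold change (horizontal axes) of the 10 genes (red) and of 16 lists of other genes (dark points) in 4 comparisons, each over the genes of the list that were tested; the dashed line is the median of all genes tested. In STZ-A10 against A10 the 10 genes have a median of 0.37 and the exocrine pancreas genes one of 4.47; in A10-FMT against Con-FMT the 10 genes, at -0.22, lie near the median of all genes at -0.17.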

How the data were processed

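RNA was extracted from frozen spleens with TRIzol, and mRNA was enriched with oligo(dT) beads and sequenced on an Illumina instrument. The deposited values are RPKM per gene, which the authors computed after aligning the reads to a gene reference, and they are given to 2 decimals. The study's methods name SOAPaligner, while the submitters' processing notes name Bowtie 0.12.2 and the mm10 build, and which of them made the table could not be settled. No read counts were used, so the depth and the counting error of single values are unknown. Of 19326 lines, 6 with repeated names were left out, and 0 columns of samples were left over. Groups were taken from the treatment labels. Nothing in the labels says whether the 3 libraries of a group are from separate animals or in what else they differ, and p-values measure the spread between these libraries.

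Group differences were fitted with the trend method of limma 3.58.1 (R 4.3.3), applied to log2(RPKM + 1) in a single model of 18 libraries with a coefficient per group, over the 12905 genes with an RPKM of at least 1 in at least 3 libraries. Two-sided p-values received a Benjamini-Hochberg adjustment over all genes tested, and an adjusted p under 0.05 counted as passing. The fit was tested on simulated data, with residuals drawn independently for each gene and library. These hold no shifts in library composition, so the test does not show how the fit handles such shifts. The study's own count test was not used, since the values are not counts. The 10 genes and the 16 lists of other genes were chosen with earlier results of these data known. Named were all 10 genes, the 3 genes of each list with the largest change in STZ-A10 against A10 and those past the threshold, and the genes with the highest Pearson's r; Gas6, Pros1, Itga4, Csf1r, Gata6, Clec4f, Vsig4 and Msr1 were added or repeated as ligands, defining markers or examples. Results for some items are not reported here. Positions are from GENCODE M21 (GRCm38) by symbol, and promoters from RefSeq. The alternatives tried were 3 other scalings, 2 other filters, pseudocounts of 0.1 and 0.5, limma without trend, fits of the compared groups alone, weights for each library, a replicate block, and leaving out each library.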

Additional observations from a re-analysis of the deposited data

How the results depend on the processing

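Whether any of the 10 genes passed the adjusted threshold depended on weights for each library and, in 2 comparisons, on single libraries. In STZ-A10 against A10, none passed under any alternative, and 10 of the 10 were higher, or 9 of 9 with an RPKM of 1 in every library, except without A10 replicate 1 (9) and without STZ-A10 replicate 1 (8). With array weights, 7 of the 10 passed in STZ against Con (and 3716 of all genes), 6 in A10-FMT against STZ (2145 genes), 6 in Con-FMT against STZ (2360), 1 in A10 against Con (Spic, with 1327 genes), 3 in A10-FMT against Con-FMT (6068) and none in the other comparisons, where 1791 genes passed in STZ-A10 against A10, 9 in STZ-A10 against STZ and 4 in the interaction. The weights also turned the direction of Vcam1 (-0.17), Marco (-0.40), Cd5l (-0.14), Mertk (-0.048) and the median of the 10 (-0.092) in STZ-A10 against STZ, and of Siglec1 (0.10), Marco (0.65) and Timd4 (0.18) in A10-FMT against Con-FMT. Timd4 turned as well, to 0.047 in A10-FMT against STZ and to below 0 in Con-FMT against STZ. The cause was not tested. Timd4 in STZ against Con turned when scaled without globin genes (-0.026). Median centring turned Spic (0.076) and Cd5l (0.039) in A10-FMT against Con-FMT.

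Without each library in turn, 0 to 1 of the 10 passed in STZ against Con (Cd163, without STZ replicate 3) and 0 to 1 in A10-FMT against STZ (Axl, without Con replicate 1). The number of all genes past the threshold ran from 0 to 234 in STZ against Con, 1 to 87 in A10-FMT against STZ, 1 to 3 in Con-FMT against STZ, 1 to 52 in STZ-A10 against A10, 1 to 21 in A10 against Con and 0 to 2625 in A10-FMT against Con-FMT. Log2 fold changes whose direction turned without a library were those of Spic (-0.011 to 0.191), Adgre1 (-0.045 to 0.178) and Timd4 (-0.051 to 0.234) in STZ-A10 against A10, and of Cd163 (-0.296 to 0.035), Mertk (-0.049 to 0.25) and Axl (-0.017 to 0.328) in A10 against Con. The others were Spic (-0.071 to 0.12), Vcam1 (-0.108 to 0.204) and Axl (-0.208 to 0.055) in STZ-A10 against STZ, Vcam1 (-0.282 to 0.022), Marco (-0.52 to 0.184) and Cd5l (-0.347 to 0.044) in A10-FMT against Con-FMT, Adgre1 (-0.021 to 0.214) and Timd4 (-0.207 to 0.23) in STZ against Con, Siglec1 (-0.288 to 0.016), Adgre1 (-0.043 to 0.137) and Timd4 (-0.188 to 0.153) in Con-FMT against STZ, and the median of the interaction (-0.271 to 0.081).

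The number of all genes past the threshold, which sets the background, moved by more than 1.5 times elsewhere. In STZ against Con, where it was 21, it was 10 with quantile normalization, 5 with median centring, 8 scaled without globin genes, 9 with no filter, 9 with an RPKM of 1 in every library, 47 and 35 with pseudocounts of 0.1 and 0.5, and 0 with only the groups compared. In STZ-A10 against A10, where it was 7, these gave 27, 29, 24, 4 and 11, then 3 with a pseudocount of 0.1 and 61 with only the groups compared. In A10 against Con, where it was 1, it was 2 with each other scaling and pseudocount, 4 with no filter and 0 with an RPKM of 1 in every library. No filter gave 9 in A10-FMT against STZ, 6 in Con-FMT against STZ and 6 in STZ-A10 against STZ, and the stricter filter gave 0 in each. Only the groups compared gave 5 in A10-FMT against STZ and 1 in A10-FMT against Con-FMT, and a pseudocount of 0.1 gave 1 in the latter.

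Over 45 pairs of libraries with the same replicate number, the correlation of deviations from the group means had a median of 0.044 (-0.385 to 0.571, above 0.1 in 14). Over 90 pairs with other numbers it had a median of -0.009 (-0.584 to 0.511, above 0.1 in 23). These values cannot settle whether the numbers pair the libraries, because differences in composition enter them too. With the replicate block, none of the 10 genes passed in any comparison. Of the table, 3 genes passed in STZ against Con and 4 in STZ-A10 against A10, where 21 and 7 passed without the block.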

Other observations

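The remaining lists of other cells are given for the comparison of STZ-A10 with A10, as values. Of 4 Kupffer cell markers tested, 2 were higher and 2 lower, with Id3 at 0.46 ± 0.325, Folr2 at -0.38 ± 0.225 and Cdh5 at 0.11 ± 0.217 on the log2 scale. Of 10 monocyte markers 6 were higher (median 0.09), with Chil3 at 1.24 ± 0.771, Vcan at 0.54 ± 0.314 and Ccr2 at -0.41 ± 0.273. Of 10 neutrophil markers 8 were lower (median -0.44), with Retnlg at 0.93 ± 0.763, Ltf at -0.84 ± 0.787 and Ngp at -0.76 ± 0.77. Of 8 B cell markers 6 were lower (median -0.21), with Fcer2a at -1.06 ± 0.418 and Ms4a1 at -0.35 ± 0.334. Of 6 globin genes 4 were higher and 2 lower (median 0.20), and the 2 lower ones had the largest changes, Hbb-bs at -4.90 ± 1.909 and Hbb-bt at -3.47 ± 1.704, against 0.39 ± 0.725 for Hbb-b2. Globin genes share near-identical sequence, so how reads were divided among them is uncertain. Of 13 erythroid markers all 13 were higher (median 0.36), with Rhag at 0.69 ± 0.379, Slc4a1 at 0.45 ± 0.471 and Kel at 0.44 ± 0.437. Of 4 testis germ cell markers 3 were lower (median -0.05), with Prm2 at -0.44 ± 0.605, Tnp2 at 0.11 ± 0.665 and Prm1 at -0.10 ± 0.655. The largest values of the lists described above were those of Try5 (adjusted p = 0.0957 by limma), Ctrb1 (5.60 ± 1.642) and Clps (5.11 ± 1.634) of the exocrine pancreas, Alb (-2.76 ± 0.974), Apoa2 (-2.65 ± 0.877) and Apoa1 (-2.01 ± 0.772) of hepatocytes, and Cd3g (-0.94 ± 0.345), Cd3d (-0.76 ± 0.332) and Cd28 (-0.76 ± 0.268) of T cells. Madcam1 was at -1.11 ± 0.468, Fcgr4 at 0.66 ± 0.373, Havcr1 at -0.56 ± 0.245, Hpx at -0.52 ± 0.591, Csf1 at 0.44 ± 0.257, Gata6 at 0.23 ± 0.205, Apoe at 0.42 ± 0.267 and Abcg1 at 0.38 ± 0.218. No gene of these lists passed the adjusted threshold of limma in this comparison, and over all lists and comparisons Tnp1, a sperm chromatin protein, was the only one that did (-2.90 ± 0.527 in STZ against Con, adjusted p = 0.0449).

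Alox15, a lipoxygenase, and Prg4, a secreted glycoprotein, both known from peritoneal macrophages, stood apart in STZ-A10. Prg4 was at 16.17, 9.69 and 7.97 RPKM there, above all 15 other libraries, of which the highest was Con-FMT replicate 1 at 6.84 RPKM. Alox15 was at 9.13, 10.54 and 7.99 RPKM, and the highest of the other libraries was Con-FMT replicate 1 at 5.22 RPKM. Against A10 their log2 fold changes were 1.51 ± 0.382 for Alox15 (adjusted p = 0.13 by limma) and 1.11 ± 0.318 for Prg4 (adjusted p = 0.179). Both were singled out after their values were seen, and neither passed the threshold.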
